A study of Mus musculus with 4 samples.

Results

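Sox1, Sox2, Sox4, Sox11, Sox12, Pou3f1, Pou3f2, Pou3f3 and Pou3f4 are mouse genes for neural transcription factors whose coding sequence lies in a single exon. They were followed by name as 9 of the 21866 protein-coding genes of GENCODE release M21, and each peak over their exons on genome build mm10 (GRCm38) was taken. Of all protein-coding genes, 1560 had a representative transcript of 1 exon. The genes have 1 annotated transcript each with 1 exon, except Sox12, which has 2 transcripts, 1 of which has 2 exons. The data are m6A-seq of whole brain from mice aged 4 weeks. The sample labels give the strain C57BL/6J and no genotype, while the design text of the series names Prrc2a flox/flox mice, and neither names a Cre. RNA fragments bound by an antibody against N6-methyladenosine (m6A) were sequenced in 2 immunoprecipitation (IP) samples, and 2 input samples served as their controls. All samples have the same labelled strain and age, so that no condition is compared, and the values are descriptions over 2 biological replicates.

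SOX proteins bind DNA through an HMG box, and POU proteins bind it through a POU-specific domain joined to a homeodomain. Members of both families regulate the step from neural progenitor to neuron or glial cell. In mRNA, m6A is written by the Mettl3–Mettl14 complex at a short consensus known as DRACH (R stands for A or G, D for any base but C, and H for any base but G), of which GGACT is a favoured form, and it is concentrated in long internal exons and around stop codons. Exon junction complexes, which splicing leaves on an mRNA, keep methylation away from nearby bases, and an mRNA from an unspliced gene carries none. For each peak the authors gave a fold enrichment, the linear ratio of IP over input from their peak caller.

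The bases that carry the finding are short, and a few are printed here to show where the consensus lies under the peaks. In the SoxC genes Sox4, Sox11 and Sox12, the last part of the coding sequence was compared at equal distances from the stop codon. Positions count from the first base of the stop codon, which is 0, with minus for bases before it, and refer to the adenosine of the motif. Capitals mark GGACT, all windows are 25 nt of GRCm38, and all lie on the minus strand. At position -80 the windows are as follows.
Sox4, chr13:28951769-28951793: tcgaattcccGGACTattgcacgcc
Sox12, chr2:152396824-152396848: tcgaattcccGGACTattgcacccc
Sox11, chr12:27341291-27341315: tcgagttccccgactactgcacgcc
Sox4 and Sox12 shared 24 of these 25 bases and both held GGACT. Sox11 shared 22 bases with Sox4 and 21 with Sox12, and did not hold GGACT there. At position -41 the order was different.
Sox11, chr12:27341252-27341276: tgatcgcgggGGACTggctggaggc
Sox12, chr2:152396785-152396809: tgatcgcaggGGACTggcgctcgtc
Sox4, chr13:28951730-28951754: tgatctcgggagattggctggagtc
Here Sox11 and Sox12 both held GGACT and shared 19 of 25 bases, while Sox4 shared 21 bases with Sox11 and 17 with Sox12 and did not hold the motif. Sox12 thus has GGACT at both positions, and each paralog has it at 1 of them. All 6 windows lay inside bases covered by peaks of both replicates. At position -149, which is not printed, only Sox12 held GGACT. There Sox12 shared 5 of 25 bases with Sox4 and 3 with Sox11, also under peaks of both replicates. Over 101 nt around position -80, Sox4 shared 78 bases with Sox11 and 60 with Sox12, counted without gaps. Around position -41, the corresponding values were 81 and 79 of 101.

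Just after the stop codon, Sox2 and Pou3f1 hold GGACT at positions 10 and 11, and both windows lay under peaks of both replicates. Both genes are on the plus strand, and capitals again mark GGACT.
Sox2, chr3:34651371-34651395: tgtgagggctGGACTgcgaactgga
Pou3f1, chr4:124659053-124659077: gtgaccctgcGGACTgggttccccg
Further GGACT sites under the peaks over the stop codon or next to it are shown for Sox1 and Pou3f2, at positions 180 and -78. Sox1 is on the plus strand and Pou3f2 on the minus strand.
Sox1, chr8:12397702-12397726: accttccccaGGACTccgaggcgct
Pou3f2, chr4:22486862-22486886: cctcccggagGGACTctgccgggcg
A peak far down the 3′ UTR of Sox12 (minus strand) had a GGACT 2 nt from its middle, and another followed closely, at positions 1809 and 1830.
Sox12, chr2:152394935-152394959: acccacagcaGGACTcgccagtctg
Sox12, chr2:152394914-152394938: tctgatgccaGGACTgaataaagtg
Pou3f4 (plus strand) is shown because its stop codon peak and its strongest peak hold no GGAC in the bases common to both replicates. The DRACH sites closest to the middle of these intervals, at positions -24 and 1119, are in capitals.
Pou3f4, chrX:110815512-110815536: cacacggtgaAAACAgacgcgtcct
Pou3f4, chrX:110816655-110816679: ttagtcgggtTGACAacctgcgcta

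All 9 genes had a shared exon peak, that is, a peak of replicate 1 over an exon that overlapped a peak of replicate 2. Among all protein-coding genes the share was 45.5%, and among single-exon genes it was 21.9%. The first base of the stop codon was covered in both replicates in 7 of the 9 genes, compared with 51.3% of all genes with a shared exon peak and 66.6% of the single-exon ones. The count of covered stop codons was thus within about 1 gene of the share among single-exon genes with a peak. Peaks depend on how much RNA of a gene was present, and the peak lists hold no RNA level. The part that RNA level has in the share of genes with a peak was not tested. In whole brain, fewer cells that use a gene and less of its RNA per cell cannot be told apart.

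The 9 transcripts carried 20 peaks in replicate 1 and 19 in replicate 2. Of these, 17 and 18 overlapped a peak of the other replicate. The fold enrichment of the peaks ranged from 1.46 to 8.98 with a median of 4.57 in replicate 1, compared with a median of 2.88 over all 38533 peaks of that replicate. In replicate 2 it ranged from 1.99 to 4.23 with a median of 2.72, compared with 2.20 over all 30134 peaks. Above the median of their own list were 18 of 20 peaks in replicate 1 and 13 of 19 in replicate 2. The peaks were also long, with medians of 758.5 nt (replicate 1) and 851 nt (replicate 2) beside 349 nt and 343 nt over all peaks. Peak length was not compared with that in single-exon genes, and whether long peaks are particular to the 9 genes was not tested. The strongest peak of each of the 9 genes had a median fold enrichment of 6.190 in replicate 1 and 3.189 in replicate 2. Among all single-exon genes with a shared exon peak, these medians were 4.682 and 2.999.

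**Figure D1:**
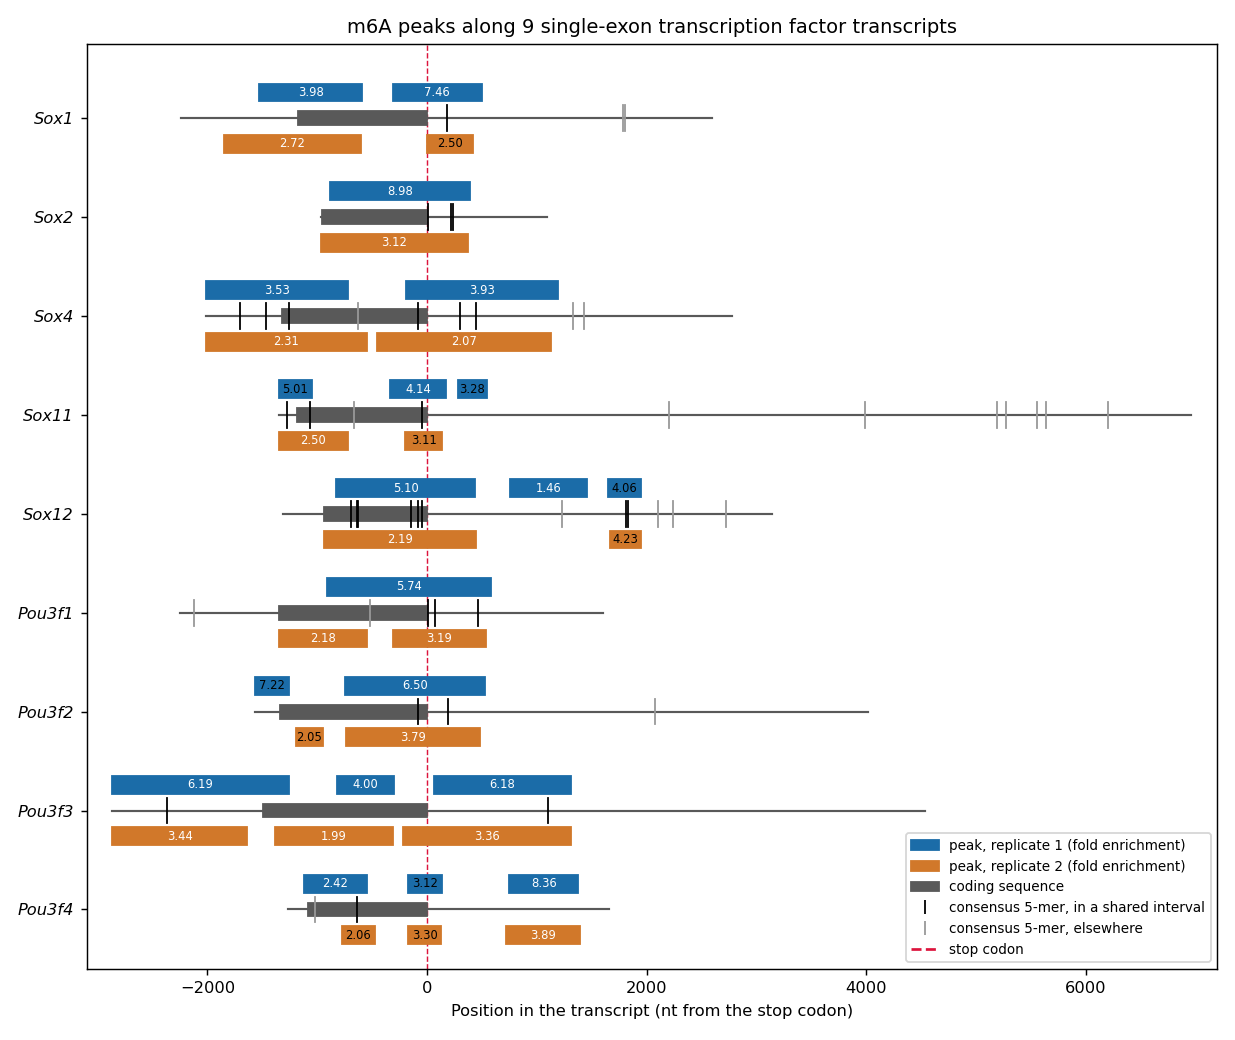
Map of the 9 transcripts, drawn to scale with the stop codon at 0 on the horizontal axis (nt). Bars above and below each transcript are the peaks of replicates 1 and 2 with their fold enrichment, the thick line is the coding sequence, and ticks are GGACT sites, in black where peaks of both replicates cover them. The stop codon was covered in both replicates in 7 of 9 genes, and most of the 3′ UTR of Sox11 had no peak.

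Sox1 and Sox2 are SoxB1 factors, which keep neural progenitors from differentiating. Sox2 is also a core factor of pluripotent stem cells. Sox2 (chr3:34650405-34652461, plus strand) had 1 long peak in each replicate that spanned most of the coding sequence and reached past the stop codon. It had a fold enrichment of 8.98 in replicate 1, the 99.7th percentile of the list and the highest value of all 9 genes, and 3.12 in replicate 2, the 83.0th percentile. The bases common to both peaks ran from -884 to 377. With GENCODE exons, 61.4% of the transcript lay in peaks of both replicates, the largest share of the 9 genes. RefSeq ends the exon of Pou3f3 earlier, and the order of the genes was not computed with RefSeq exons. The 3 GGACT sites of the Sox2 transcript, at positions 10, 222 and 237, all lay within the bases common to both peaks.

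Sox1 (chr8:12395295-12400126, plus strand) had 2 peaks in each replicate, 1 over the start codon and 1 near the stop codon. The peak over the start codon had fold enrichments of 3.98 and 2.72 in replicates 1 and 2. The second peak reached 7.46 in replicate 1, where it ran from -310 to 500 and covered the stop codon. In replicate 2 the overlapping peak had a fold enrichment of 2.50 and ran from 5 to 415, so that it began 5 nt after the first base of the stop codon. The replicates thus differed in whether the stop codon of Sox1 was covered, by the left edge of 1 peak. Over the matched peaks of Sox1 the larger value was near the stop codon in replicate 1 and at the start codon in replicate 2. An annotated miRNA gene (Gm25239) shares 86 exonic nt with Sox1 on the same strand, all within the shared intervals.

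Sox4, Sox11 and Sox12 form the SoxC group, which acts in differentiating neurons after the cell cycle has ended. Sox4 (chr13:28948919-28953713, minus strand) was covered by 2 long peaks in each replicate, 1 over the whole 5′ UTR and the first part of the coding sequence, and 1 over the stop codon and into the 3′ UTR. The 5′ peak had fold enrichments of 3.53 and 2.31, and the peak over the stop codon 3.93 and 2.07. The strongest peak of Sox4 in each replicate, 3.93 and 2.31, was the lowest of the 9 genes, while 54.7% of the transcript lay in peaks of both replicates. The lincRNA gene Gm26735 on the opposite strand shares 2616 exonic nt with Sox4, of which 1102 nt lay in shared intervals. The TruSeq RNA kit named in the labels does not mark strand, and reads of these genes cannot be told apart there.

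Sox11 (chr12:27334264-27342574, minus strand) has the longest transcript of the 9 genes, with a 3′ UTR of 6957 nt. It had a peak at its 5′ end, with fold enrichments of 5.01 and 2.50, and a peak over the stop codon, with 4.14 and 3.11. The peak over the stop codon was short, with 334 nt common to both replicates, from -196 to 137, and its middle lay 29 nt before the stop codon. A further peak, from 284 to 543 with a fold enrichment of 3.28, was found in replicate 1 and overlapped no peak in replicate 2. The rest of the 3′ UTR had no peak in either replicate, although it holds 7 GGACT sites. The lists do not tell whether reads were present there. Only 7.70% of the transcript lay in peaks of both replicates, the smallest share of the 9 genes.

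Sox12 (chr2:152393611-152398063, minus strand) had a peak over most of the coding sequence and the stop codon, with fold enrichments of 5.10 and 2.19 in the replicates. Another peak lay in the 3′ UTR, with common bases from 1669 to 1945, far from the stop codon. It reached 4.06 in replicate 1 and 4.23 in replicate 2, and was the strongest peak of any of the 9 genes in replicate 2 (96.7th percentile of the list). It was also 1 of only 2 matched peaks with the higher value in replicate 2. This interval of 277 nt holds 2 GGACT sites, the pair printed for Sox12 at positions 1809 and 1830. A peak of 706 nt between these, with a fold enrichment of 1.46 in replicate 1, had no counterpart in replicate 2. Sox12 holds 12 GGACT sites, the largest number of the 9 transcripts, and 8 of them lay in shared intervals.

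The class III POU genes are Pou3f1 (Oct6), which times myelination by Schwann cells, Pou3f2 (Brn2) and Pou3f3 (Brn1), which act together in upper-layer neurons of the cortex, and Pou3f4 (Brn4), which is needed in the inner ear. Pou3f1 (chr4:124656807-124660655, plus strand) had 1 peak in replicate 1, from -907 to 585, with a fold enrichment of 5.74. In replicate 2 it overlapped 2 peaks, with values of 2.18 from -1345 to -545 and 3.19 from -311 to 539. The stop codon was covered in both replicates, while the 5′ part of the coding sequence was covered in replicate 2 only. The 3 GGACT sites of its 3′ UTR, at positions 11, 70 and 468, all lay in the shared interval.

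Pou3f2 (chr4:22482780-22488366, minus strand) had a peak over the stop codon that was nearly the same in both replicates, from -743 to 531 and from -741 to 481, with fold enrichments of 6.50 and 3.79. Its strongest peak in replicate 1 lay at the 5′ end of the transcript over the start codon, with a value of 7.22 (98.7th percentile of the list). No peak of replicate 2 overlapped it. Replicate 2 had instead a peak of 238 nt within the coding sequence, with a value of 2.05, which overlapped no peak of replicate 1. For Pou3f2 the stop codon peak was therefore the shared one, and the 5′ signal was not found in both replicates.

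Pou3f3 (chr1:42695768-42703176, plus strand) had 3 peaks in each replicate and the largest number of shared intervals, 4. One of these, of 134 nt, arose because the middle peak of replicate 2 also overlapped the 5′ peak of replicate 1. The 5′ peak had fold enrichments of 6.19 and 3.44 and lay mostly in the 5′ UTR, the middle peak 4.00 and 1.99, and the 3′ peak 6.18 and 3.36. The 3′ peak began 64 nt after the first base of the stop codon in replicate 1 and at -216 in replicate 2, and ended at 1307 and 1310. The 5′ and 3′ peaks of Pou3f3 thus had nearly equal values within each replicate. It holds only 2 GGACT sites, at positions -2368 and 1099, and each lay in a shared interval.

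Pou3f4 (chrX:110814280-110817207, plus strand) also had 3 peaks in each replicate, and its strongest peak did not cover the stop codon. The peak within the 3′ UTR, from 751 to 1377, had fold enrichments of 8.36 and 3.89, at percentiles 99.6 and 94.3 of the lists. The peak over the stop codon had values of 3.12 and 3.30, the second matched peak that was higher in replicate 2. The remaining peak, with common bases within the coding sequence from -778 to -546, had 2.42 and 2.06. The 3′ UTR interval of 627 nt holds 9 DRACH sites and the stop codon interval of 296 nt holds 5, and neither holds GGAC.

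**Figure D2:**
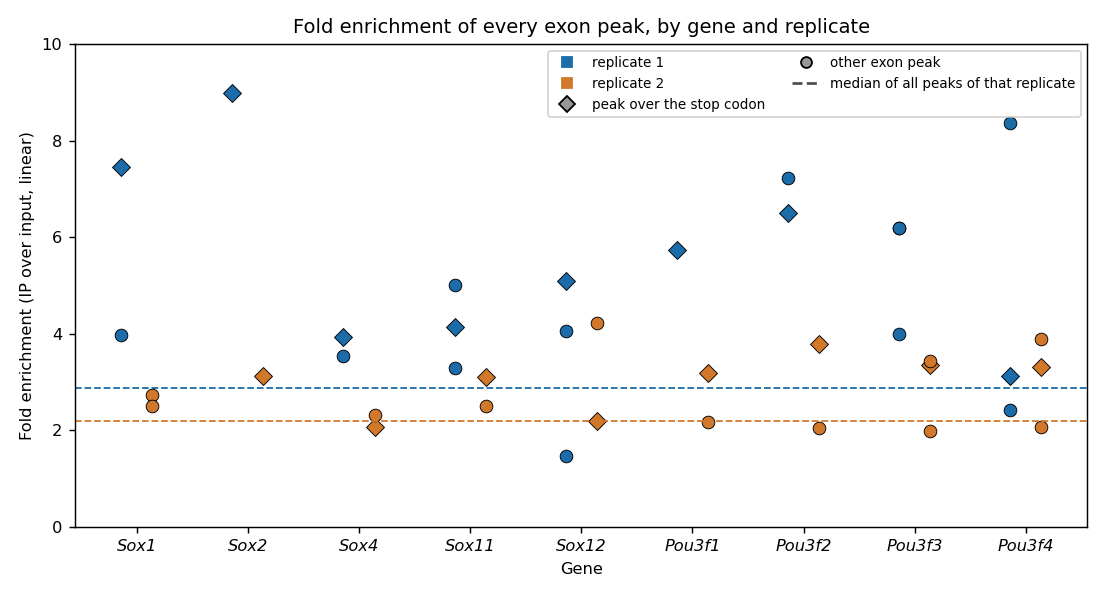
Fold enrichment (linear, vertical axis) of every exon peak of the 9 genes, by replicate, with diamonds for peaks over the stop codon and circles for the others. Dashed lines are the medians of all peaks of each replicate, 2.88 and 2.20, and the points of replicate 1 spread up to 8.98 while those of replicate 2 stay no higher than 4.23.

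The strongest peak of each gene was compared between the genes. In replicate 1 the order ran from Sox2 at 8.98 through Pou3f4 (8.36), Sox1 (7.46) and Pou3f2 (7.22) to Sox4 at 3.93. In replicate 2 it ran from Sox12 at 4.23 through Pou3f4 (3.89) and Pou3f2 (3.79) to Sox4 at 2.31. Sox4 was the lowest in both replicates and Pou3f4 the second highest in both. When both replicates were averaged on the log2 scale, Pou3f4 was first (5.70) and Sox4 last (3.01), and in all 8 pairs of neighbours in this order the ranges of the replicates overlapped. These ranges include the offset between the replicates, since the strongest peak of each gene had its higher value in replicate 1. Their overlap therefore does not show that neighbouring genes were alike. The strongest peak was the same in both replicates in 4 genes, Sox2, Pou3f1, Pou3f3 and Pou3f4. In the other genes the averages and ranges join different peaks.

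Over the 17 matched pairs of peaks, matched by best mutual overlap, 15 had the higher fold enrichment in replicate 1. This was 88.2% (95% Wilson interval 65.7 to 96.7), compared with 77.9% of all 22457 matched pairs. The interval covers counting error only, since all pairs come from the same 2 IP samples and pairs of 1 gene are not independent. The median log2 ratio of replicate 1 over replicate 2 was 0.85 for the pairs of these genes (SD 0.47), compared with 0.37 for all pairs (SD 0.48). The rank correlation of the values of the 2 replicates over these pairs was 0.500 (Spearman's rho, n = 17, a description, since pairs of 1 gene share their RNA). Each value is therefore given with its replicate.

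Positions were then compared along the transcripts. The 19 shared intervals had their midpoints in the 5′ UTR in 3 cases, in the coding sequence in 10 and in the 3′ UTR in 6. Over all 19677 shared intervals that were placed on 1 transcript, the shares were 9.26%, 61.8% and 29.0%. Within 200 nt of the stop codon lay the midpoints of 5 intervals (26.3%, 95% Wilson interval 11.8 to 48.8), compared with 23.0% over all placed intervals. These intervals had a median length of 627 nt, compared with 334 nt over all 23901, among which single-exon genes were not set apart. Of the 7 that covered the stop codon, those of Sox2 and Sox4 had midpoints farther away, at -254 and 469. Wilson intervals cover counting error only. Each overlap was counted, so that 1 peak of Pou3f1 and some of Pou3f3 enter more than 1 interval, and the intervals are not independent.

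Of the bases of the 9 transcripts, 48.9% of the 5′ UTR, 54.2% of the coding sequence and 20.4% of the 3′ UTR lay in peaks of both replicates, and 31.9% over all regions. By gene, the median was 34.6%, compared with 13.3% for all genes with a shared exon peak and 34.5% for the single-exon ones. At 100 nt after the first base of the stop codon, peaks of both replicates covered all 9 genes, compared with 56.7% of other single-exon genes and 48.9% of multi-exon genes with a shared exon peak. At the stop codon itself the values were 77.8%, 66.3% and 50.8%, and at -200 they were 44.4%, 61.2% and 31.4%. Farther upstream, at -725, they were 88.9%, 42.2% and 21.1%. The curve of the 9 genes thus crossed that of the other single-exon genes several times, and lay above it from -175 to 525 without a break. With 9 genes, 1 gene is a step of the curve, and the positions were read from the curve after it was drawn. The start codon was covered in both replicates in 3 of 9 genes, Sox1, Sox4 and Sox11, compared with 22.3% of all genes with a shared exon peak and 37.0% of the single-exon ones.

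**Figure D3:**
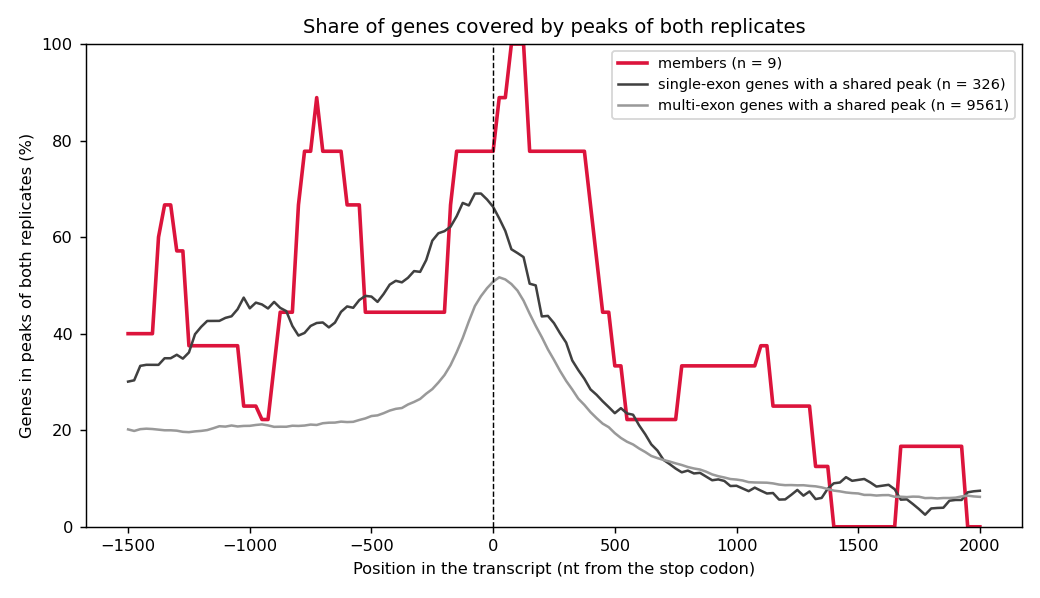
Share of genes (%, vertical axis) in which peaks of both replicates covered a position, by distance from the stop codon (nt, horizontal axis, read every 25 nt), for the 9 genes (red), other single-exon genes (dark grey) and multi-exon genes (light grey) with a shared peak. The red curve reached all 9 genes at 100 nt after the stop codon, where the grey curves were at 56.7% and 48.9%.

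The consensus GGACT was counted on the transcribed strand. The 9 transcripts hold 50 sites, of which 29 lay in shared intervals. By region, 4 of 5 sites in the 5′ UTR, 12 of 16 in the coding sequence and 13 of 29 in the 3′ UTR lay in shared intervals. This was 2.06 sites per kb inside shared intervals and 0.697 per kb in the rest of the exons, compared with 1.53 per kb over all placed intervals. Base composition moved with the peaks, since GC was 60.7% inside the intervals and 48.0% outside. Over all placed intervals it was 53.8%. The part of base composition in the motif counts was not tested.

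**Figure D4:**
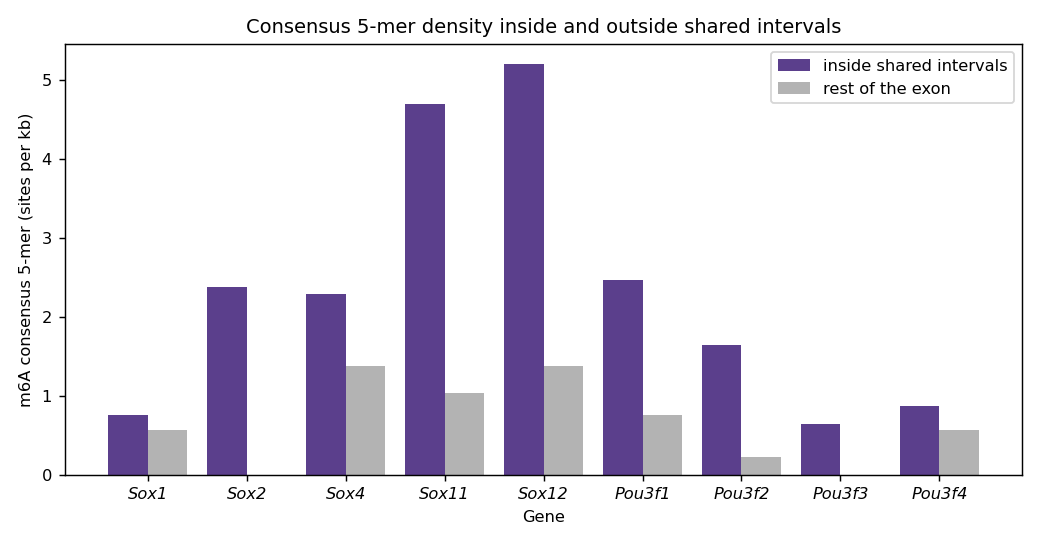
GGACT sites per kb (vertical axis, from 0) inside shared intervals (purple) and in the rest of the exon (grey) for each of the 9 genes, without replicates. The density was higher inside in all 9 genes, from 0.641 per kb in Pou3f3 to 5.19 in Sox12, and Sox2 and Pou3f3 had no site outside. Sox1 and Pou3f4 had only 1 site each inside, and the share of other genes with a higher density inside was not computed.

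GGACT was present in 13 of the 19 intervals (68.4%), compared with 43.1% of all placed intervals, which are shorter. In windows of 101 nt around the midpoints, which have equal length, GGACT was present in 8 of 19 (42.1%) compared with 15.9%. GGAC was present in 15 of 19 (78.9%) compared with 46.7%. Base composition was not equal, with 60.7% GC in the intervals of the 9 genes and 53.8% in all placed intervals. Its part in these shares was not tested, and single-exon genes were not set apart. Each of the 9 genes had GGACT in a shared interval, and the share among other genes with a shared peak was not computed. Within 50 nt of an interval midpoint, 6 of the 9 genes had GGACT (not Sox2, Pou3f2 or Pou3f3). This share was not computed for other genes either, and a gene with more intervals has more windows. The intervals without GGACT were the 5′ interval of Sox1, the interval within the coding sequence of Pou3f1, 2 intervals within the coding sequence of Pou3f3, and the stop codon and 3′ UTR intervals of Pou3f4. The first 4 of these hold GGAC, with 4, 5, 1 and 5 sites. A match is only a place where these letters occur, and does not show which adenosine carried the mark.

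Of 25 other SOX and POU genes, 15 had a shared exon peak and 8 had the stop codon covered in both replicates. Over the 15 with a shared peak, the median share of bases in peaks of both replicates was 14.1% and the median of the lower of both fold enrichments 2.63, compared with 34.6% and 3.19 for the 9 genes. Over all 25, with 0 for genes without a shared peak, these medians were 4.82% and 2.17. The highest lower values were found for Sox8 (4.02), Sox6 (3.84) and Pou2f1 (3.81), all genes of more than 1 exon. Of the 4 relatives with 1 exon, Sox3 and Sox21 had a shared peak, Sox14 had 2 peaks in replicate 1 and none in replicate 2, and Pou5f2 had none. Sox3, the remaining SoxB1 gene, had fold enrichments of 4.03 and 2.63, and its stop codon was not covered in both replicates.

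Among 23 other transcription factor genes with 1 exon, a list that includes Sox3, Sox14 and Sox21, 19 had a shared exon peak and 14 had the stop codon covered in both replicates. Over these 19 the median share of bases in peaks of both replicates was 40.9% and the median lower fold enrichment 2.83, and over all 23, with 0 for those without a shared peak, they were 27.0% and 2.63. The genes with the coverage profile most like the mean of the 9 genes, among 326 other single-exon genes, were Tril, Magee1 and Tlnrd1. Their Euclidean distances from this mean were 0.269, 0.478 and 0.518 over 7 segments of the transcript. The 9 genes themselves lay farther from it, from 0.679 (Pou3f3) to 1.05 (Sox11). The mean is therefore not the profile of any of them, and closeness to it is not likeness to a single gene.

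The tissue label was checked with marker genes. All 10 brain genes of the list had an exon peak and 9 had a shared one, and of 6 genes of other organs only Myh6 had a peak. Peaks are no measure of RNA level.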

How the data were processed

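Messenger RNA of brain (total RNA in the labels) was fragmented and immunoprecipitated with an anti-m6A antibody. Per the study's methods, reads were trimmed with Cutadapt and Trimmomatic, aligned to mm10 with TopHat (TopHat2 2.0.9 in the submitters' processing notes) and filtered for unique mapping. The authors called peaks with MACS2 for each IP against its own input, without pooling and with duplicates kept. Each deposited value is a fold enrichment, that is, IP divided by input on a linear scale. The lists hold no counts, strand or p-value, so the depth is unknown and no test between samples was made. Retained duplicates and low input can raise the ratio.

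Coordinates count both ends (shortest peak 200 nt). Exons came from GENCODE M21, and the representative transcript has the longest coding sequence. Peaks were shared at an overlap of at least 1 bp, and shared intervals are the common bases. Sequences were read from RefSeq's GRCm38 patch 6. Python 3.11.15 scripts were tested on simulated data. The 9 genes and the lists were chosen with earlier results of these data known. Named were all 9 genes, the 3 relatives with the highest lower fold enrichment, intronless relatives, and the 3 genes closest in profile. The rule also named the 3 other intronless factors with the highest lower fold enrichment, which are not reported here. Alternatives changed the overlap rule, fold enrichment threshold, exons, windows, motif and replicates.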

Additional observations from a re-analysis of the deposited data

Results flagged for a closer look

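Peaks in the 500 bp outside the annotated exons were not part of the comparisons, and 2 lay there, both in replicate 1. The input enters both through their fold enrichment. Upstream of Sox2, 12 nt before the exon, a peak had a fold enrichment of 3.05. It overlapped the long Sox2 peak of replicate 2, and 399 nt of it lay in the exon as RefSeq places it, which starts farther upstream than in GENCODE. Upstream of Sox11, 218 nt before the exon, a peak had a fold enrichment of 3.42, with no counterpart in replicate 2 and no base in the RefSeq exon.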

How the results depend on the processing

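Of 40 alternative values for 9 results, 32 stayed within set limits and 8 did not. The limits were 1.5 times the count, the SD between replicates or the Wilson interval. Some of the 32 could not have moved. A gene with a shared peak has a peak in each list, and each GGACT is also GGAC and DRACH. The limit for the median fold enrichment was wide (1.31), because the replicates differ. A fall from 9 to 6 genes with GGACT near a midpoint also stayed within its limit. The tally is therefore no measure of stability. When peak midpoints had to lie within 100 bp, 4 genes had a shared exon peak (not Sox1, Sox2, Sox4, Pou3f1 or Pou3f3) and 6 intervals were shared. With a peak midpoint within 200 nt of the stop codon in both replicates, 4 genes were counted in place of 7 (Sox11, Pou3f1, Pou3f2 and Pou3f4). The share of exon bases in peaks of both replicates was 30.5% at a fold enrichment of at least 2, 34.1% with RefSeq exons (chosen after seeing the data), and 38.2% to 38.5% with 1 replicate left out, which asks for 1 list only. With a window of 100 nt, 10.5% of intervals had their midpoint near the stop codon in place of 26.3%. The midpoint rules and the narrower window ask for shorter distances, and the cause of the changes was not tested. No paired analysis was possible because 1 group of IP samples gives no comparison to pair. Depth is unknown, so a position without a peak may lack reads. Peaks of at least 200 nt do not place single methylated bases.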
